A study of Mus musculus with 281 samples.

Results

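The genes Ifitm1, Ifitm2, Ifitm3, Ifitm6 and Ifi27l2a were followed across single bone marrow cells of C57BL/6 mice, an inbred laboratory strain. They are 5 of the 43280 gene symbols in the deposited table and were taken by name. The cells were sequenced with SMART-seq2, which copies whole transcripts of a single cell, and levels are in TPM, the share of a transcript in the cell's own total. The cell type labels were tpMo (31 cells), preNeu (31), proneu (22), Ly6C+GMP (95 cells of one stretch of sample titles and 10 of another), Ly6C-GMP (45) and CMP (47).

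The gates behind these labels were as follows. The tpMo cells were CD115+, c-Kit-, CXCR4+ and Ly6C+. The preNeu cells were Gr1+, CD11b+, c-Kit+ and CXCR4+ and lacked CD115 and SiglecF. The Ly6C+GMP and Ly6C-GMP cells were lineage-negative, c-Kit+, Sca-1-, CD34+ and CD16/32hi and differed in surface Ly6C, and CMP cells were the corresponding CD16/32lo cells. For 21 of the proneu cells the gate given was that of Ly6C+GMP, while the label of 1 carried no gate; the labels do not state if the name proneu was given from the transcriptomes. No genotype other than the strain, no treatment and no age are used here. Each deposited sample is 1 cell and no animal is named, so a label counts as 1 sample: there is no test and no p-value, and every SD describes how single cells of a label varied.

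IFITM proteins are small membrane proteins of the cell surface and of endosomes that block the fusion of many enveloped viruses with the cell. In most cells their genes are induced by interferons through elements bound by STAT and IRF factors, while stem and progenitor cells can carry them without an interferon signal. In human cells IFITM1 sits mainly at the plasma membrane, and IFITM2 and IFITM3 mainly in endosomes. Ifitm6 is a less studied member of the family in mice. Ifi27l2a belongs to another family of small, hydrophobic, interferon-induced proteins and is no relative of the IFITM proteins.

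Ifitm2, Ifitm1, Ifitm3 and Ifitm6 lie in this order in a cluster of 63.1 kb on chromosome 7 of GRCm38, which spans 140954837 to 141017924. In the GENCODE M21 annotation Ifitm1 (140967221 to 140969825) is on the plus strand. Ifitm2 (140954837 to 140955987), Ifitm3 (141009586 to 141010770) and Ifitm6 (141015699 to 141017924) are on the minus strand. Ifi27l2a is on chromosome 12, from 103442167 to 103443680 on the minus strand. The coding sequences of Ifitm2 and Ifitm3 were 75.9% identical, and the longest run shared by their whole transcripts was 69 bases. The coding sequences of Ifitm1 and Ifitm3 were 63.5% identical, and their transcripts shared a run of at most 64 bases. The transcripts of every other pair shared 40 bases or fewer. Reads were paired and ran over 151 cycles each, longer than any of these runs. RSEM, the authors' quantifier, shares out reads that match several genes by estimate, so the levels of Ifitm1, Ifitm2 and Ifitm3 are less certain than those of genes with no close relative.

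The sequence upstream of the RefSeq start of each Ifitm gene is shown because the letters of interferon elements differed between the 4 windows searched. The rest of the cluster was not searched. The sequences are those of RefSeq on GRCm38.p6, 5′ to 3′ on the strand of the gene, from 250 bases before the RefSeq start to the base before the first transcript start annotated in the window. The stretches of Ifitm2 and Ifitm3 lie just upstream of these genes. Those of Ifitm1 and Ifitm6 lie in the first intron of longer GENCODE transcripts that begin further upstream. Capitals mark matches to the core of the interferon-stimulated response element (ISRE), which is GAAA, any 2 bases and GAAA, or to a composite element of ETS and IRF factors, which is GGAA, any 2 bases and GAAA. Both were searched on either strand. Ifi27l2a had no entry in the promoter table.
Ifitm1, chr7:140967826-140968027, plus strand: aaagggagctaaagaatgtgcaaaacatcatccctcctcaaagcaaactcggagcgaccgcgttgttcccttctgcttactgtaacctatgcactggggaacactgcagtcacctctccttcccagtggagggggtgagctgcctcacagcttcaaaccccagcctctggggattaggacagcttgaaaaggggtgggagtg
Ifitm2, chr7:140955988-140956211, minus strand: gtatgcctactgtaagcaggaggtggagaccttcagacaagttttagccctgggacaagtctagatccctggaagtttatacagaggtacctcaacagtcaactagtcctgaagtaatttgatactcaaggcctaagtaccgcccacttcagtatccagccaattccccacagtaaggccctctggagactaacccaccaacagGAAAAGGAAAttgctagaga
Ifitm3, chr7:141010771-141010994, minus strand: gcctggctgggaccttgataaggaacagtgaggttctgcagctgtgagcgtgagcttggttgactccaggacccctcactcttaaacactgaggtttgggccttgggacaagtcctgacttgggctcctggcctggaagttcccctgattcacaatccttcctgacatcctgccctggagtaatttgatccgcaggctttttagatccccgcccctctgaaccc
Ifitm6, chr7:141016909-141017142, minus strand: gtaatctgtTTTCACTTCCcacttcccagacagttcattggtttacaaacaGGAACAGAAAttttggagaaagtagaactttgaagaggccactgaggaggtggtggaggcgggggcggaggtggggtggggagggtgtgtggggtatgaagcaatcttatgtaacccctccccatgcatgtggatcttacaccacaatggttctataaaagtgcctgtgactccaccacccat
The window from which these were cut also covers 50 bases after the RefSeq start. There Ifitm3 held a pair of ISRE cores close together in its first exon, shown with both cores in capitals.
Ifitm3, chr7:141010714-141010743, minus strand: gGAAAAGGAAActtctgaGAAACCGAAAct

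In the windows of 300 bases, Ifitm2 had 1 ISRE core, from 46 to 37 bases before its start, and Ifitm3 had 2, at 3 to 12 and at 20 to 29 bases after it. Ifitm6 had no ISRE core but 2 composite elements, at 241 to 232 and at 199 to 190 bases before its start. Another motif, TTCNNNGAA, which reads the same on both strands and is bound by STAT dimers (GAS), was found once each in Ifitm3 and Ifitm6. In Ifitm3 it overlapped the second ISRE core, from 14 to 22 bases after the start, and in Ifitm6 it lay 10 to 2 bases before it. The window of Ifitm1 held none of the 3 motifs. Over 32851 promoters of the same length, 3.44% held the ISRE core, 2.72% the composite element and 8.30% the GAS letters. A match is a description of the letters and not of binding.

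Depth and cell identity bear on all values. The median number of genes at 1 TPM or more was 3082 in tpMo, 2373 in preNeu, 4204 in proneu, 4829 in Ly6C+GMP, 4514 in Ly6C-GMP and 3489 in CMP cells, and the number of reads per cell is not recoverable from TPM. In preNeu cells the 20 most abundant genes took a median of 47.1% of all TPM, against 14.2 to 22.4% in the other labels. The 8 monocyte genes summed to 1248 to 7989 TPM in tpMo cells and to at most 13.8 TPM in preNeu, 545 TPM in proneu, 4177 TPM in Ly6C+GMP, 3098 TPM in Ly6C-GMP and 3506 TPM among CMP cells, so that some progenitors reached the tpMo range. The 7 secondary granule genes summed to 125453 to 293977 TPM in preNeu cells and to at most 2741 TPM in proneu cells. Of 5 plasmacytoid dendritic cell genes Siglech, Ccr9 and Klk1 were at 0 in every cell. The sum, which thus came from Tcf4 and Cox6a2 alone, reached 779.9 TPM in 1 CMP cell. The 5 T and NK cell genes were at 0 in tpMo, preNeu, proneu and Ly6C+GMP cells and summed to at most 202.5 TPM in Ly6C-GMP and 303.6 TPM among CMP cells. Some other lists had larger sums. The 9 stem, erythroid and megakaryocyte genes reached 10245 TPM among CMP cells (median 1120 TPM) and 4538 TPM among Ly6C-GMP cells. Basophil and mast cell genes reached 6938 TPM and eosinophil genes 6911 TPM in Ly6C-GMP cells. Conventional dendritic cell genes reached 1397 TPM and B cell genes 1267 TPM among CMP cells. The part of such cells in the results was not tested. Of the GMP cells, 1 Ly6C+GMP cell and 3 of 45 Ly6C-GMP cells had at least 1000 TPM of the secondary granule gene Ngp, as all 31 preNeu cells had. Their other genes were mixed. The Ly6C-GMP cell at 2694 TPM of Ngp was at 0 for the secondary granule genes Camp and Ltf and had 523 TPM of Gata2. The one at 5582 TPM had 27210 TPM of the progenitor gene Elane. Some of the comparisons, levels, sums and correlations are also given without the GMP cells high in Ngp, a setting chosen after the values were seen.

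Sample titles fall into stretches, called title runs here, whose meaning the labels do not state. In run A were 95 Ly6C+GMP cells. Run B was made up of 1 proneu cell, 30 Ly6C-GMP cells and 31 CMP cells, and run H of 15 Ly6C-GMP and 16 CMP cells. In run C were the 31 tpMo, 31 preNeu and 21 proneu cells and 10 Ly6C+GMP cells. As no run had cells of both GMP labels, the effects of run and of label on that comparison cannot be told apart.

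Each gene had its own distribution over the labels. Ifitm2 was present nearly everywhere, Ifitm1 was concentrated in Ly6C-GMP and CMP cells, Ifitm6 in tpMo and preNeu cells, and Ifi27l2a in tpMo cells. Ifitm3 was highest on average in tpMo cells and lowest in proneu cells. Detection means at least 1 TPM, and intervals of shares are exact Clopper-Pearson 95% intervals that cover counting error only.

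**Figure D1:**
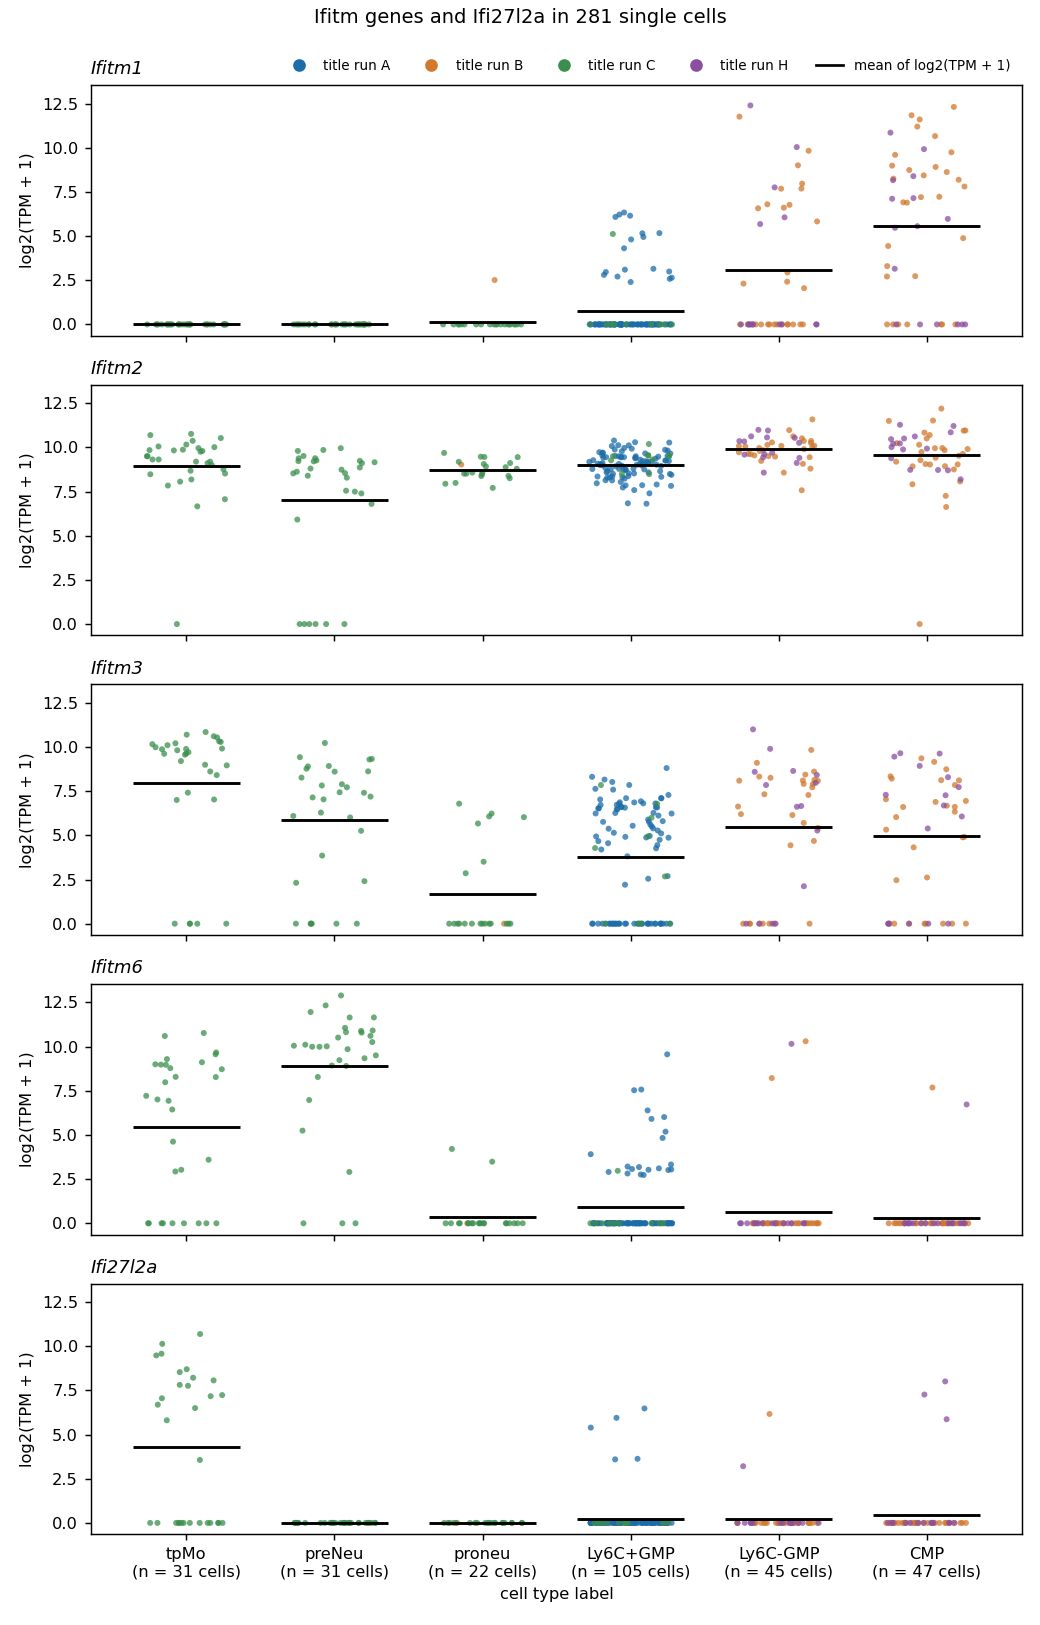
Each point is 1 cell; the vertical axis is log2(TPM + 1) of the gene named above each panel, the horizontal axis the cell type label, colours the title run and the black line the mean of log2(TPM + 1). Ifitm2 is off the zero line in 273 cells, while Ifitm1 is at 0 in all tpMo and preNeu cells and Ifi27l2a at 0 in all preNeu and proneu cells.

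Ifitm2 was detected in 273 cells over all labels. It averaged 725 ± 445 TPM in tpMo, 394 ± 298 TPM in preNeu, 456 ± 168 TPM in proneu, 571 ± 261 TPM in Ly6C+GMP, 1068 ± 527 TPM in Ly6C-GMP and 1114 ± 893 TPM among CMP cells. It was detected in 30 of 31 tpMo, 25 of 31 preNeu and 46 of 47 CMP cells and in every proneu, Ly6C+GMP and Ly6C-GMP cell. Its lowest, median and highest values were 0, 637 and 1738 TPM in tpMo cells and 0, 393 and 992 TPM in preNeu cells. Medians were 413 TPM in proneu, 533 TPM in Ly6C+GMP, 997 TPM in Ly6C-GMP and 943 TPM among CMP cells, and the highest cells were at 823 TPM in proneu, 1340.2 TPM in Ly6C+GMP, 3072 TPM in Ly6C-GMP and 4697 TPM among CMP cells. The labels overlapped throughout, and no gap between neighbours in the order of mean log2(TPM + 1) exceeded the larger of their SDs over cells. The gap between proneu and preNeu cells, 1.74, exceeded the SD of proneu cells, 0.53, but not that of preNeu cells, 3.60.

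Ifitm1 had its high levels in the Ly6C-GMP and CMP labels. It was at 0 in all 31 tpMo and all 31 preNeu cells. By a limit of 3 counts each allows a share of up to 9.68% of cells, while the exact interval reaches 11.2%. In proneu cells it was detected in 1 of 22, at 4.71 TPM, and that cell was the one with no gate label. In Ly6C+GMP cells it was detected in 19 (18.1%, 11.3 to 26.8%), at a mean of 5.00 ± 15.3 TPM and no higher than 79.8 TPM. In Ly6C-GMP cells 20 of 45 had it (44.4%, 29.6 to 60.003%), with a median of 0, a highest value of 5391 TPM and a mean of 285 ± 953 TPM, which was 169 TPM without the highest cell. Without the cells high in Ngp 17 of 42 Ly6C-GMP cells had it, at a mean of 162 TPM. In CMP cells 34 of 47 had it (72.3%, 57.4 to 84.4%), with a median of 119.5 TPM, a highest value of 5092 TPM and a mean of 530.4 ± 1055 TPM. All labels had cells at 0, and the Ly6C-GMP and CMP cells spread over the full range.

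Ifitm3 was detected in 191 cells over all labels. Its lowest, median and highest values were 0, 795 and 1841 TPM in tpMo cells, and 26 of 31 cells had it (83.9%, 66.3 to 94.5%). In preNeu cells they were 0, 145 and 1199 TPM, with 25 of 31 cells detected. These were the labels with the highest means, at 748 ± 542 TPM in tpMo and 237 ± 278 TPM in preNeu cells. Proneu cells had the lowest mean, 17.3 ± 32.5 TPM, with 7 of 22 cells detected (31.8%, 13.9 to 54.9%) and none above 109.96 TPM. Ly6C+GMP cells averaged 57.3 ± 78.2 TPM (67 cells or 63.8%, highest 448 TPM), Ly6C-GMP cells 225 ± 354 TPM (33 of 45, highest 2047 TPM) and CMP cells 166 ± 225 TPM (33 of 47, highest 801 TPM). Without the cells high in Ngp the Ly6C-GMP mean was 165 TPM, with 30 of 42 cells detected. Every label held cells at 0, and no neighbours in the order differed by more than the larger of their SDs over cells.

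Ifitm6 had its high levels in tpMo and preNeu cells. It was detected in 22 of 31 tpMo cells (70.97%, 51.96 to 85.8%), with a median of 128 TPM, a highest value of 1748 TPM and a mean of 317 ± 437 TPM. In preNeu cells 28 of 31 had it (90.3%, 74.2 to 97.96%), with a median of 1035 TPM, a highest value of 7629 TPM and a mean of 1503 ± 1674 TPM. Elsewhere the median was 0. It was detected in 2 of 22 proneu cells, at 17.5 and 10.2 TPM, in 22 Ly6C+GMP cells (20.95%), in 3 of 45 Ly6C-GMP cells and in 2 of 47 CMP cells. The median over the cells with it was only 8.2 TPM in Ly6C+GMP, against 1142 TPM in Ly6C-GMP and 155 TPM among CMP cells. Of the Ly6C+GMP cells 21 of 95 in run A and 1 of 10 in run C had it. The gap between tpMo and Ly6C+GMP cells, 4.56 on the log2(TPM + 1) scale, was the only one between neighbours of any of the 5 genes that exceeded the larger SD over cells, which was 4.05.

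Ifi27l2a was close to a tpMo transcript in these cells. It was detected in 17 of 31 tpMo cells (54.8%, 36.03 to 72.7%), with a median of 55.05 TPM, a highest value of 1653 TPM and a mean of 217 ± 378 TPM. It was at 0 in all 31 preNeu and all 22 proneu cells. By the limit of 3 counts this allows shares of up to 9.68% of preNeu and 13.6% of proneu cells. The exact intervals reach 11.2% and 15.4%. In 5 Ly6C+GMP, 2 of 45 Ly6C-GMP and 3 of 47 CMP cells it was detected at low means. They were 2.02 ± 11.2 TPM among Ly6C+GMP, 1.76 ± 10.6 TPM among Ly6C-GMP and 9.93 ± 43.7 TPM among CMP cells. The highest cells there, at 88.2 TPM in Ly6C+GMP, 70.9 TPM in Ly6C-GMP and 257 TPM among CMP cells, were below the higher tpMo cells. Without that cell the means were 1.195 TPM in Ly6C+GMP, 0.187 TPM in Ly6C-GMP and 4.57 TPM among CMP cells. All 3 CMP cells were of run H. Within tpMo cells the level of Ifi27l2a ran against the number of genes detected (Pearson r = -0.58 over 31 cells of 1 run), and the part of depth in its zeros was not tested. Ifitm1 in the 47 CMP cells (r = -0.40) and Ifitm3 in tpMo cells (r = -0.39) also ran against it. The other values of the 5 genes within labels lay between -0.34 and 0.27.

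The cells of the rare combinations also differed in other lineage genes, as read from the levels of single cells. The highest Ly6C+GMP cell for Ifitm6, at 757 TPM, had 46094 TPM of Ngp, and the next had 189 TPM of Ifitm6 with 27.8 TPM of Ngp and 1065 TPM of Irf8, a transcription factor gene of monocytes and dendritic cells. The 3 Ly6C-GMP cells with Ifitm6, at 1263, 1142 and 297 TPM, had 40544, 2694 and 5582 TPM of Ngp, and were the same 3 cells that had at least 1000 TPM of it. The second of them was also the Ly6C-GMP cell highest in Ifitm1 and in Ifitm3, at 5391 and 2047 TPM, and had 2610 genes detected, the fewest of its label. The label means of Ifitm6 therefore rest on few cells. They were 14.3 TPM among Ly6C+GMP and 60.05 TPM among Ly6C-GMP cells, and without the highest cell of each 7.19 TPM among Ly6C+GMP and 32.7 TPM among Ly6C-GMP cells. Without all cells high in Ngp the mean was 7.19 TPM among Ly6C+GMP cells and 0 among the remaining 42 Ly6C-GMP cells, of which none had Ifitm6. The mean in CMP cells was 6.59 TPM, and 2.28 TPM without the highest cell. Both CMP cells with Ifitm6, at 204.8 and 104.98 TPM, were at 0 for Ngp and had 989.97 and 528 TPM of Irf8. The 5 Ly6C+GMP cells with Ifi27l2a had 429.7 to 1329 TPM of Irf8, where 82.9% of all Ly6C+GMP cells had Irf8, at a mean of 368 TPM. Of the 2 Ly6C-GMP cells with Ifi27l2a, the higher one, at 70.9 TPM, was at 0 for Irf8 and the other had 759 TPM. The 3 CMP cells with Ifi27l2a had 379, 528 and 345 TPM of Irf8, where 26 of 47 CMP cells had it, at a mean of 151 TPM.

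Labels with a like summed Ifitm level differed in the genes that made it up. The sum over Ifitm1, Ifitm2, Ifitm3 and Ifitm6 averaged 1791 ± 1016 TPM in tpMo, 2133 ± 1787 TPM in preNeu, 475 ± 168 TPM in proneu, 648 ± 288 TPM in Ly6C+GMP, 1638 ± 1656 TPM in Ly6C-GMP and 1817 ± 1763 TPM among CMP cells. Of the TPM summed over tpMo cells Ifitm3 made up 41.8%, Ifitm2 40.5% and Ifitm6 17.7%. In preNeu cells Ifitm6 made up 70.4%, Ifitm2 18.5% and Ifitm3 11.1%. Ifitm2 alone made up 96.04% in proneu and 88.2% in Ly6C+GMP cells, 65.2% in Ly6C-GMP cells, where Ifitm1 held 17.4%, and 61.3% in CMP cells, where Ifitm1 held 29.2%. Without the cells high in Ngp the mean sum was 640.4 ± 278 TPM among Ly6C+GMP and 1388 ± 1067 TPM among Ly6C-GMP cells, and of the Ly6C-GMP sum Ifitm2 held 76.4% and Ifitm1 11.7%. Averaged over all single Ly6C-GMP cells, the share of Ifitm1 was 7.21%. The tpMo, preNeu and CMP labels thus had sums of a like size, within their spread, from different genes.

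Single cells gave the same description. Among the 5 genes, the highest in the cell was Ifitm3 in 14 and Ifitm2 in 12 of 31 tpMo cells, and Ifitm6 in 24 of 31 preNeu cells. It was Ifitm2 in 22 of 22 proneu and all but 1 of the Ly6C+GMP, 41 of 45 Ly6C-GMP and 36 of 47 CMP cells, and Ifitm1 in 3 Ly6C-GMP and 9 CMP cells. Every cell had at least 1 of the 5 genes, and the median number per cell was 3 in tpMo, preNeu and CMP cells, 2 in both GMP labels and 1 in proneu cells. The most frequent combination was Ifitm2, Ifitm3, Ifitm6 and Ifi27l2a in tpMo cells (11 of 31) and Ifitm2, Ifitm3 and Ifitm6 in preNeu cells (20 of 31). In proneu cells it was Ifitm2 alone (14 of 22), in Ly6C+GMP cells Ifitm2 and Ifitm3 (38 cells), in Ly6C-GMP cells the same pair (17 of 45) and in CMP cells Ifitm1, Ifitm2 and Ifitm3 (23 of 47). All 5 genes were found together in 1 cell, a Ly6C-GMP cell that was also the one highest in Ngp of its label.

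**Figure D2:**
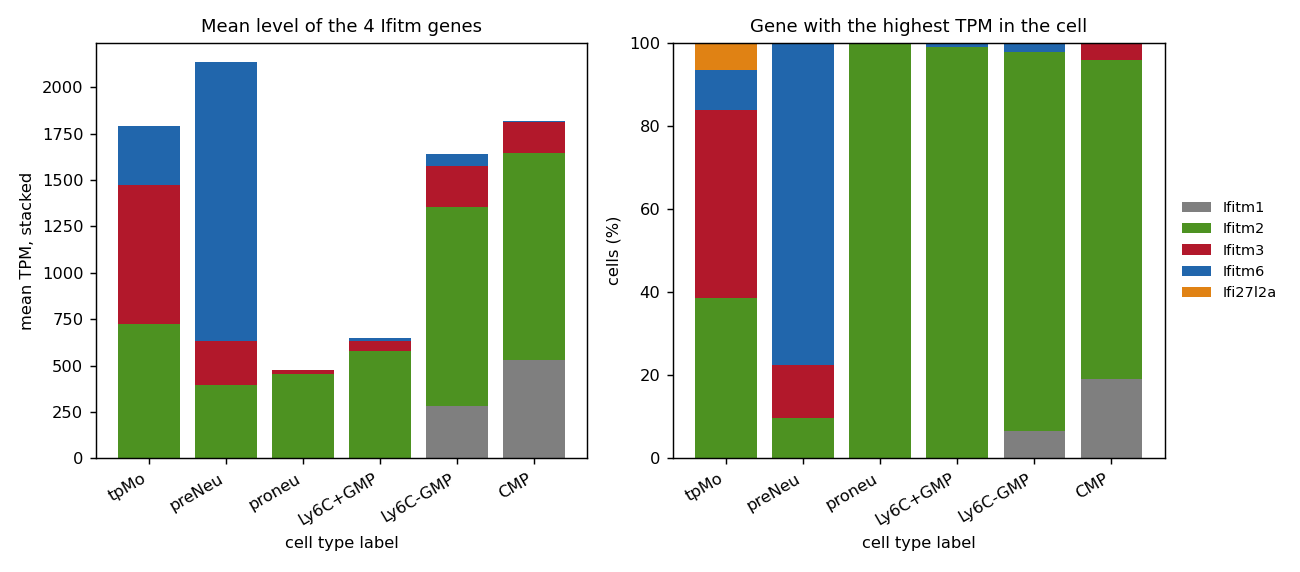
Left, mean TPM of Ifitm1, Ifitm2, Ifitm3 and Ifitm6, stacked, for each cell type label; right, the percentage of cells of the label in which each of the 5 genes had the highest TPM. Ifitm2 fills the proneu column at right (22 of 22 cells) and Ifitm6 most of the preNeu column (24 of 31 cells).

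Between labels, a gene was called higher or lower from a difference of 1 in mean log2(TPM + 1), among genes whose mean reached 1 TPM in at least one of the labels. The first comparison set Ly6C-GMP cells against CMP cells, which differ in the CD16/32 gate. Ifitm1 averaged 285 TPM in Ly6C-GMP cells (169 TPM without the highest cell) and 530.4 TPM in CMP cells. It differed by -2.52, and by -2.96 within run B and -1.69 within run H. The other genes lay within 1: Ifitm2 differed by 0.35, Ifitm3 by 0.52, Ifitm6 by 0.33 and Ifi27l2a by -0.24. Thus 0 of 5 were higher and 1 was lower, where 15.6% and 1.29% of all 12582 genes were. As the log2 ratio of mean TPM, with 1 TPM added to each mean, the Ifitm1 difference was -0.89, which is within 1. The small differences of the rare genes moved with single cells: without the Ly6C-GMP cells high in Ngp Ifitm6 differed by -0.31, and Ifi27l2a by -1.11 within run H and 0.21 within run B. Without the cells high in Ngp Ifitm1 differed by -2.97 and Ifitm3 by 0.22.

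Lower in Ly6C+GMP cells, against Ly6C-GMP cells, were Ifitm1 and Ifitm3; the gates differ in surface Ly6C. The mean of Ifitm1 was 5.00 TPM among Ly6C+GMP cells, against 285 TPM among Ly6C-GMP cells, a difference of -2.31, and 13 of 45 Ly6C-GMP cells exceeded every Ly6C+GMP cell. The mean of Ifitm3 was 57.3 TPM among Ly6C+GMP cells, against 225 TPM among Ly6C-GMP cells, a difference of -1.66, with 4 Ly6C-GMP cells above every Ly6C+GMP cell. Ifitm2 differed by -0.89, short of the limit, and Ifi27l2a by 0.03. In all 0 of 5 genes were higher and 2 lower, against 9.87% and 1.35% of 12399 genes. The called differences were -2.29 and -1.61 when run A alone stood for Ly6C+GMP, -2.56 and -2.20 when run C alone did, and -1.89 and -1.41 without the cells high in Ngp. Ifitm6 changed sign with the measure, 0.28 as a difference of log values and -1.99 as the log2 ratio of mean TPM with 1 TPM added to each mean. Its Ly6C-GMP mean was 0 without the cells high in Ngp.

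Proneu cells were next set against Ly6C+GMP cells, the gate from which most of them came. Ifitm3 averaged 17.3 TPM among proneu cells, against 57.3 TPM among Ly6C+GMP cells, a difference of -2.10, with 31.8% of proneu cells positive, against 63.8% of Ly6C+GMP cells. Within run C, with 21 proneu and 10 Ly6C+GMP cells, the difference was -1.48. Ifitm1 differed by -0.64, Ifitm2 by -0.26, Ifitm6 by -0.57 and Ifi27l2a by -0.24. The count was 0 higher and 1 lower of 5, where 2.2% and 15.9% of 12026 genes were. Ifitm6, the prominent gene of preNeu cells, was found in 2 of 22 proneu cells.

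PreNeu cells differed from proneu cells most in Ifitm6 among these genes. It averaged 1503 TPM in preNeu and 1.26 TPM in proneu cells, where it was 0.487 TPM without the highest cell, a difference of 8.54 and of 8.53 within run C. Of the 31 preNeu cells, 27 exceeded the highest proneu cell. Ifitm3 averaged 237 TPM in preNeu and 17.3 TPM in proneu cells, a ratio of 13.7, and differed by 4.19 and within run C by 4.11. It exceeded the highest proneu cell in 18 of 31 preNeu cells. Ifitm2 differed by -1.74, with means of 394 TPM among preNeu and 456 TPM among proneu cells. As the log2 ratio of mean TPM, with 1 TPM added to each mean, its difference was -0.21 and with median-ratio scaling, which sets cells to the same level of widely detected genes, -0.95, so its call held for neither. Ifitm1 and Ifi27l2a were at 0 in preNeu cells and had means under 1 TPM in proneu cells too, so they were not measured. Of the 3 measured genes 2 were higher and 1 lower, against 3.58% and 39.8% of 10991 genes (43.4% in either direction), whose median difference was -0.68, or -0.53 after median-ratio scaling.

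tpMo cells differed from Ly6C+GMP cells in 3 genes. Ifitm6 averaged 317 TPM in tpMo and 14.3 TPM in Ly6C+GMP cells, a difference of 4.56 and of 5.18 within run C. Ifitm3 averaged 748 TPM among tpMo and 57.3 TPM among Ly6C+GMP cells, a ratio of 13.1, and differed by 4.19 and within run C by 4.73. Ifi27l2a averaged 217 TPM among tpMo and 2.02 TPM among Ly6C+GMP cells (1.195 TPM without the highest cell), and differed by 4.05 and within run C, where all 10 Ly6C+GMP cells were at 0, by 4.29. Of 31 tpMo cells, 21 had more Ifitm3 and 15 more Ifi27l2a than any Ly6C+GMP cell, and 4 had more Ifitm6. Ifitm2 differed by -0.03 and Ifitm1 by -0.76. Of 5 genes 3 were higher and 0 lower, where 3.19% and 32.9% of 12057 genes were.

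The direct comparison of the tpMo and preNeu labels, both of run C, separated the genes. Ifi27l2a averaged 217 TPM in tpMo cells and was listed at 0 in preNeu cells, a difference of 4.29. Ifitm3 averaged 748 TPM in tpMo and 237 TPM in preNeu cells (2.10), and Ifitm2 725 TPM in tpMo and 394 TPM in preNeu cells (1.97, but 0.88 as the log2 ratio of means with 1 TPM added). Ifitm6 went the other way, with means of 317 TPM among tpMo and 1503 TPM among preNeu cells (-3.42), and 10 preNeu cells exceeded every tpMo cell. Of the 4 measured genes 3 were higher and 1 lower in tpMo cells, against 26.3% and 4.53% of 10826 genes, whose median difference was 0.36. The tpMo and Ly6C+GMP labels each enter more than 1 comparison, so these values are not independent of each other.

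**Figure D3:**
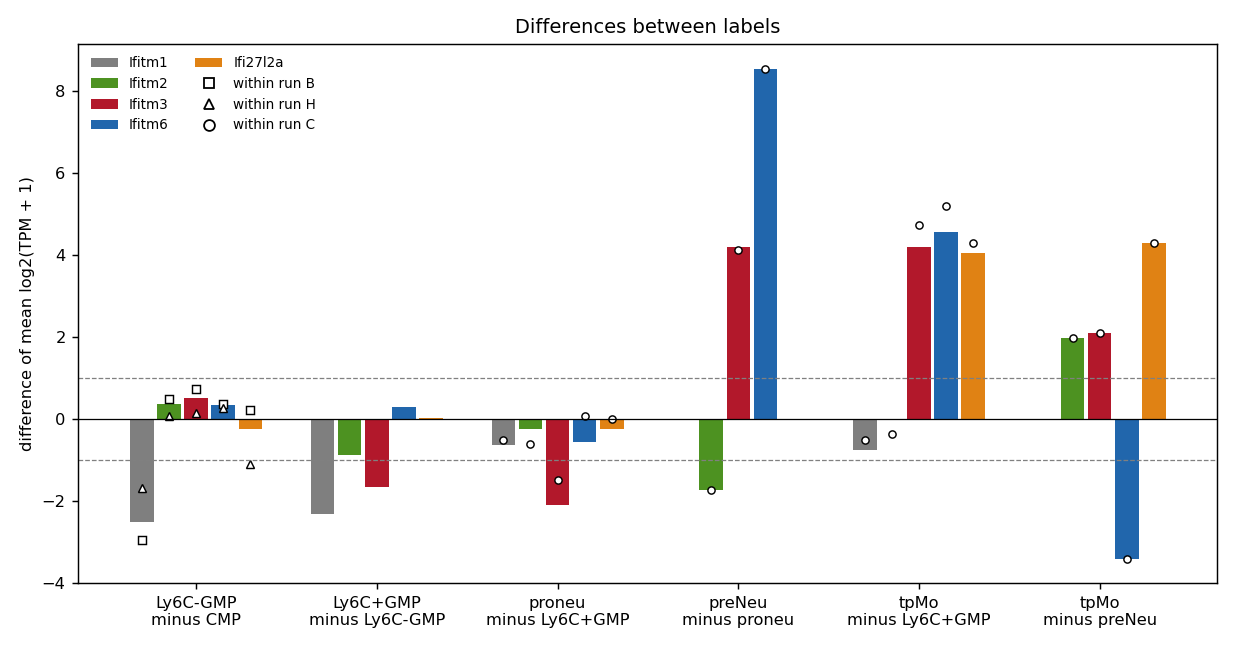
Bars give the difference of mean log2(TPM + 1) for each gene in the 6 comparisons, open symbols the difference within the title runs that hold both labels, and dashed lines a difference of 1 either way; genes with a mean under 1 TPM in both labels have no bar. The tallest bar is Ifitm6 in preNeu minus proneu cells, 8.54, and in tpMo minus preNeu cells the Ifitm6 bar points down, at -3.42, while the Ifitm2, Ifitm3 and Ifi27l2a bars point up.

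How the genes varied among themselves was described with Pearson correlations of log2(TPM + 1) over all cells, which share the labels, the runs and their depth. Ifitm3 had r = 0.32 with Ifi27l2a and 0.28 with Ifitm6, and Ifitm2 had r = -0.27 with Ifitm6. With the label means removed these pairs had 0.19, 0.15 and 0.02, so the negative value of Ifitm2 with Ifitm6 was one between labels, and its Spearman value was -0.13. Within the 31 tpMo cells, Ifitm3 and Ifi27l2a had r = 0.46, and 16 of the 17 cells with Ifi27l2a also had Ifitm3. Ifitm2 and Ifitm3, which are the most alike in sequence, had r = 0.05 over all cells, so their levels varied apart from cell to cell.

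The genes whose pattern was most like that of Ifitm1 over all cells were Gata2, a transcription factor gene of stem, mast and erythroid progenitor cells (r = 0.60), and Klf1, a transcription factor gene of red cell formation (0.56). Slc22a3, Car2 and Angpt1 followed at 0.55, 0.54 and 0.53. With label means removed Klf1, Gata2 and Slc22a3 led, at 0.44, 0.38 and 0.36, ahead of Sdsl and Apoe. Within labels, Ifitm1 and Gata2 had r = 0.49 in 45 Ly6C-GMP cells (0.35 in the 42 cells without the cells high in Ngp) and 0.39 in 47 CMP cells. The 4 Ly6C-GMP cells highest in Ifitm1, at 5391, 3477, 1051 and 908 TPM, had 523, 556, 126 and 88.2 TPM of Gata2. Several cells of each label had Ifitm1 with Gata2 at 0 or Gata2 with Ifitm1 at 0: both were detected together in 10 Ly6C-GMP and 22 CMP cells, of 20 and 34 cells with Ifitm1.

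Ifitm6 was most like genes of the secondary granules, a set of granules made during neutrophil maturation. Ltf, which encodes lactoferrin, had r = 0.72, Ngp 0.70, the chitinase-like gene Chil1 0.69, the surface protein gene Cd177 0.68 and Chil3 0.68. After removal of label means Chil1 (0.44), Ltf (0.37) and Ngp (0.37) led, followed by Plbd1 and S100a9. These values rested largely on the 4 GMP cells high in Ngp: without them r over all cells was 0.72 for Ltf, 0.69 for Ngp and 0.67 for Chil1, but with label means removed 0.14 for Ltf, 0.05 for Ngp and 0.25 for Chil1. Within the 31 preNeu cells Ifitm6 and Ltf had r = 0.47. In tpMo cells, which averaged 317 TPM of Ifitm6 and 11.1 TPM of Ltf, r was 0.03. Ltf was thus near its low end in tpMo cells, whatever their Ifitm6 level.

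Ifi27l2a was most like Fn1, which encodes fibronectin (r = 0.69), followed by S100a6 at 0.53, Ahnak at 0.52, and S100a4 and the lysosomal thiol reductase gene Ifi30 at 0.51 each. With label means removed Fn1 still led, at 0.44. The others fell to 0.14 for S100a6, 0.04 for Ahnak, 0.13 for S100a4 and 0.11 for Ifi30, so their likeness lay mostly between labels. Fn1 averaged 594 TPM in tpMo cells and 1.88 TPM in Ly6C+GMP cells, with lower means in the other labels. Within the 31 tpMo cells r was 0.56, and all 17 cells with Ifi27l2a also had Fn1, which was detected in 28 of 31 tpMo cells. The genes most like Ifitm3 were less alike: Tmsb10, a thymosin gene (0.40), the receptor genes Pirb (0.37) and Lilrb4 (0.35), Fmnl1 (0.35) and Fn1 (0.34). With label means removed Lyz2, the lysozyme gene of myeloid cells, came first at 0.28. Ifitm2 was nearest to genes of growth and translation: Eef1b2 (0.46), Ptma (0.46), Npm1 (0.43), Rplp1 (0.42) and Eef1a1 (0.41). With label means removed these had 0.28, 0.32, 0.19, 0.14 and 0.16, in that order. The numbered Rpl and Rps ribosomal protein genes had been left out of this search beforehand. By rank correlation 2 of 5 nearest genes stayed for Ifitm1, 0 for Ifitm2, 2 for Ifitm3, 1 for Ifitm6 and 4 for Ifi27l2a, so the exact order of such lists depends on the measure.

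**Figure D4:**
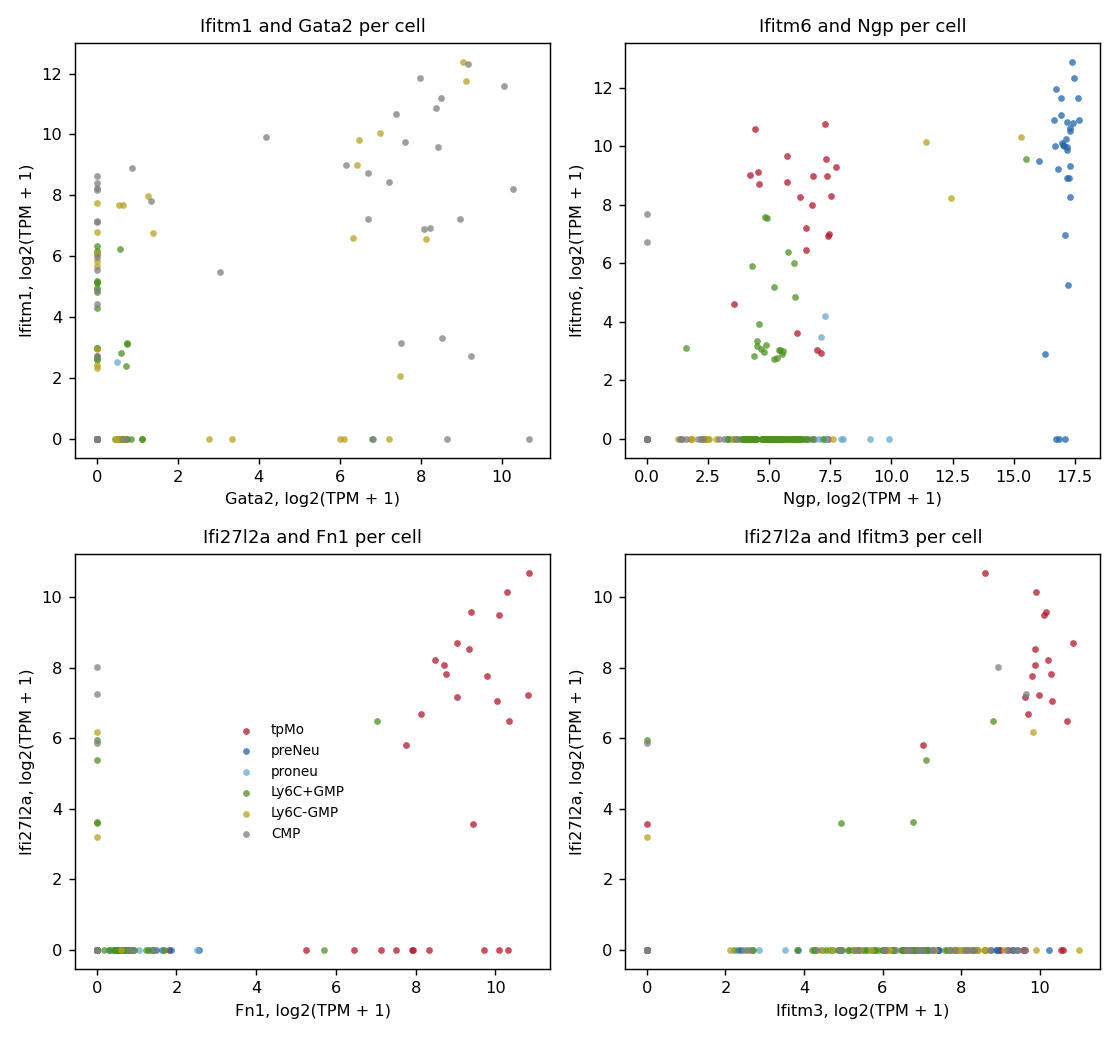
Each point is 1 cell, coloured by label; axes are log2(TPM + 1) of the genes named. Ifitm1 rises with Gata2 in Ly6C-GMP and CMP cells (r = 0.49 and 0.39, and 0.60 over all cells), with many cells at 0 for either. Without the cells high in Ngp the Ly6C-GMP value was 0.35. Ifitm6 is high in the preNeu cells at the right of the Ngp axis and also in tpMo cells with little Ngp. Ifi27l2a lies over the tpMo cells with Fn1 (r = 0.56 within tpMo, 0.69 over all cells) and with Ifitm3 (0.46 within tpMo, 0.32 over all cells).

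Other genes of both families were low or differently placed. Ifi27, a relative of Ifi27l2a that encodes an interferon-induced membrane protein, averaged 16.4 ± 63.1 TPM in tpMo (7.92 TPM without the highest cell), 40.2 ± 85.7 TPM in preNeu, 136 ± 156 TPM in proneu, 70.5 ± 102.4 TPM in Ly6C+GMP, 103.03 ± 163 TPM in Ly6C-GMP and 160.04 ± 273 TPM among CMP cells. It was thus lowest in the label in which Ifi27l2a was highest, with a difference of -2.68 in tpMo over Ly6C+GMP cells and of -5.55 within run C. In proneu over Ly6C+GMP cells Ifi27 differed by 0.72 over all cells but by -1.96 within run C. Ifitm7 averaged at most 15.6 TPM in any label, in Ly6C-GMP cells (9.58 TPM without the highest cell), and was at 0 in all preNeu cells. Ifitm5 was detected in 8 and Ifitm10 in 2 of all cells. Ifi27l2b, a close relative of Ifi27l2a, was detected in 3 of 31 tpMo cells and in no other cell, at a tpMo mean of 0.298 TPM. Of the locus neighbours of the Ifitm cluster, 0 were higher and 6 of 9 measured were lower in preNeu over proneu cells, with a median of -1.65, where 39.8% of all genes were lower and their median was -0.68. In tpMo over Ly6C+GMP cells 0 were higher and 4 of 13 lower, with a median of -0.53, where 32.9% of all genes were lower and their median was -0.50. The counts were 4 higher and 1 lower of 10 in tpMo over preNeu and 0 and 2 of 12 in proneu over Ly6C+GMP cells. There 26.3% of all genes were higher and 15.9% lower, in that order. They were 2 and 0 of 12 in Ly6C+GMP over Ly6C-GMP and 1 and 0 of 12 in Ly6C-GMP over CMP cells. There 9.87% and 15.6% of all genes were higher.

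Interferon genes themselves were not seen. Of 21 interferon genes in the table, 20 were at 0 in every cell, and the other, Ifnz, was found in 1 tpMo cell. The wider pathway was followed with a list of 46 genes of the type I interferon response, a list of 26 of the interferon gamma response, 21 receptors and signalling genes and 12 partners of IFITM proteins on the entry route of viruses. Counts are of measured genes higher or lower by 1 and are read beside the shares of all genes given with each comparison. Of all genes, 3.19% were higher and 32.9% lower in tpMo over Ly6C+GMP cells, and 3.58% and 39.8% in preNeu over proneu cells. The shares were 2.2% and 15.9% in proneu over Ly6C+GMP cells, and 26.3% and 4.53% in tpMo over preNeu cells. In Ly6C+GMP over Ly6C-GMP cells they were 9.87% and 1.35%, and in Ly6C-GMP over CMP cells 15.6% and 1.29%.

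The type I interferon response list held genes of both directions. In tpMo over Ly6C+GMP cells 5 of 37 genes were higher and 7 lower (median -0.16, against -0.50 over all genes). Samhd1, which degrades nucleotides that viruses need, averaged 349 TPM in tpMo and 46.6 TPM in Ly6C+GMP cells, and Mnda, a nuclear protein gene of myeloid cells, 75.7 TPM in tpMo and 7.25 TPM in Ly6C+GMP cells. Lgals3bp, a secreted glycoprotein gene, went the other way, at 0.287 TPM in tpMo cells (0.032 TPM without the highest cell) and 57.9 TPM in Ly6C+GMP cells. In preNeu over proneu cells 1 of 28 was higher and 10 lower (median -0.35, against -0.68), and Ly6e, a membrane protein gene that restricts viral entry, averaged 92.4 TPM in preNeu and 1099.9 TPM in proneu cells. Bst2, whose protein tethers budding virus particles, was listed at 0 in preNeu and averaged 57.6 TPM in proneu cells. The share lower in this list, 10 of 28, stood beside 39.8% of all genes in the same comparison.

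In tpMo over preNeu cells 14 of 31 genes of that list were higher and 0 lower (median 0.85, against 0.36). Ly6e averaged 4655 TPM in tpMo and 92.4 TPM in preNeu cells, a difference of 8.70, and Samhd1 349 TPM in tpMo and 32.8 TPM in preNeu cells (10.6 TPM without the highest cell). Trim30a, a TRIM family gene, averaged 90.9 TPM in tpMo cells and reached 1 TPM in no preNeu cell. In the other comparisons 1 of 37 genes was higher and 7 lower in proneu over Ly6C+GMP cells, 2 of 36 higher and 1 lower in Ly6C+GMP over Ly6C-GMP cells, and 6 of 37 higher and 1 lower in Ly6C-GMP over CMP cells. The gene lower in this last comparison was Ifi203, with 8.84 TPM in Ly6C-GMP cells (4.08 TPM without the highest cell) and 51.3 TPM in CMP cells.

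The interferon gamma list holds antigen processing and guanylate-binding protein genes. Its genes were 0 higher and 9 lower of 21 in tpMo over Ly6C+GMP cells, where 32.9% of all genes were lower (medians -0.83 and -0.50). In preNeu over proneu cells 0 were higher and 11 lower of 17, where 39.8% of all genes were lower (medians -1.41 and -0.68). In proneu over Ly6C+GMP cells 0 were higher and 10 lower of 21, where 15.9% of all genes were lower (medians -0.90 and -0.23). In tpMo over preNeu cells 8 of 18 were higher and 0 lower, where 26.3% of all genes were higher (medians 0.86 and 0.36). Ly6C+GMP over Ly6C-GMP cells had 1 of 21 higher and 0 lower, and Ly6C-GMP over CMP cells 2 of 20 higher and 2 lower. Psmb8, an immunoproteasome subunit gene, averaged 142 TPM in preNeu and 383 TPM in proneu cells. Gbp3, a guanylate-binding protein gene, averaged 27.4 TPM in tpMo (9.90 TPM without the highest cell) and 73.6 TPM in Ly6C+GMP cells.

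Among receptors and signalling genes, Ifngr1, a chain of the interferon gamma receptor, averaged 140.5 TPM in preNeu and 931 TPM in proneu cells, a difference of -5.64. Irf5, a transcription factor gene of the interferon and Toll-like receptor pathways, averaged 419.6 TPM in tpMo and 24.1 TPM in Ly6C+GMP cells (5.53), and 0.879 TPM in preNeu cells (0.329 TPM without the highest cell). Irf8 averaged 1.08 TPM among proneu cells, against 368 TPM among Ly6C+GMP cells (-5.67, but -0.90 within run C). Of this list 2 of 19 were higher and 3 lower in tpMo over Ly6C+GMP cells, 3 of 18 higher and 8 lower in preNeu over proneu cells, and 1 of 19 higher and 7 lower in proneu over Ly6C+GMP cells. Of all genes 32.9%, 39.8% and 15.9% were lower in these comparisons, in that order. Counts for the list were 9 higher and 1 lower of 20 in tpMo over preNeu cells. They were 3 higher and 1 lower of 19 in Ly6C+GMP over Ly6C-GMP, and 5 higher and 1 lower of 20 in Ly6C-GMP over CMP cells. Here 26.3%, 9.87% and 15.6% of all genes were higher, in that order.

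The partner list holds tetraspanins, lysosomal proteins and enzymes that act on IFITM proteins. Cd63, a tetraspanin gene of late endosomes and granules, averaged 22.98 TPM in tpMo cells (7.26 TPM without the highest cell), 847 TPM in preNeu, 1815 TPM in proneu, 664 TPM in Ly6C+GMP, 1116 TPM in Ly6C-GMP and 223 TPM among CMP cells. Cd9, another tetraspanin gene, averaged 31.1 TPM in tpMo cells (15.9 TPM without the highest cell), 824 TPM in preNeu and 139 TPM in proneu cells. Lamp1, a lysosomal membrane protein gene, averaged 1040.5 TPM in tpMo and 133 TPM in preNeu cells. Nedd4, which encodes a ubiquitin ligase that acts on IFITM3, averaged 47.4 TPM in preNeu and 151 TPM in proneu cells. Of 12 genes 2 were higher and 7 lower in tpMo over Ly6C+GMP cells (32.9% of all genes were lower). The counts were 5 and 5 in tpMo over preNeu cells, and 1 and 7 in preNeu over proneu cells (39.8% of all genes lower). In proneu over Ly6C+GMP cells 3 were higher and 0 lower (Cd63, Nedd4 and Cd81, at 3.73, 1.99 and 1.56, but 0.69, 0.06 and -0.45 within run C). The counts were 2 and 2 in Ly6C+GMP over Ly6C-GMP and 6 and 0 in Ly6C-GMP over CMP cells (15.6% of all genes higher).

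**Figure D5:**
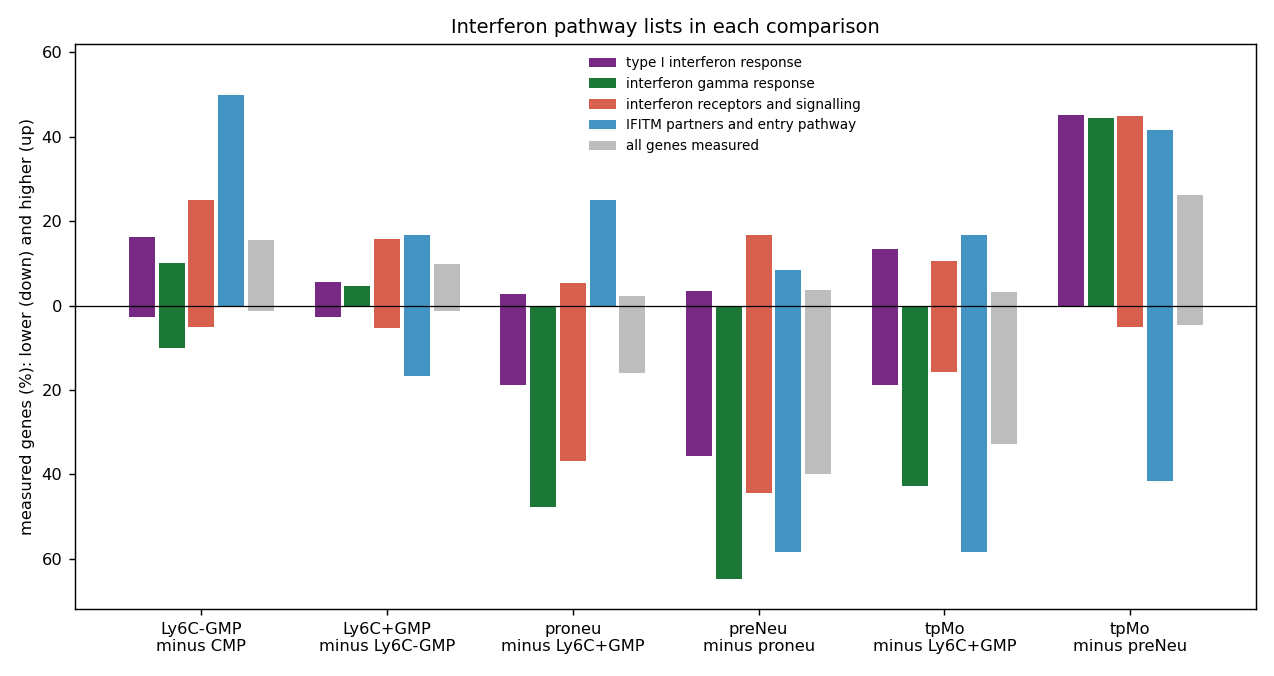
Bars above the line give the percentage of measured genes of each list that were higher by at least 1 in mean log2(TPM + 1), bars below the line the percentage that were lower, in the 6 comparisons; grey bars give the same for all genes measured. In preNeu minus proneu cells 11 of 17 interferon gamma genes are lower, beside 39.8% of all genes. In tpMo minus preNeu cells the type I response has 14 of 31 genes higher and none lower, beside 26.3% and 4.53% of all genes.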

How the data were processed

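The deposited table holds 1 column of TPM values per cell for 43280 gene symbols, made by the authors with RSEM 1.2.19 on GRCm38, per the submitters' processing notes; which aligner and annotation were used is not given in the sources used here. The deposited TPM values are scaled by the authors to each cell's total (998703 to 1000000 here) and keep no read depth, and no 2 columns were identical. Genes at 0 in every cell numbered 25450. All cells were used, grouped by their cell type label.

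From the table were computed means, SDs over cells, shares of cells at 1 TPM or more with exact Clopper-Pearson 95% intervals, and differences of mean log2(TPM + 1), which understate the change of low genes. A share of 0 is given with the limit that 3 counts of the total allow and with the exact upper bound. Genes whose mean reached 1 TPM in at least one of the labels were measured, and a difference of 1 was called. Each label is 1 sample, since no animal is named, so no test was made and there is no replicate check.

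The 5 genes and the gene lists were chosen with earlier results of these data known. Named genes were all 5 and the 5 genes of highest Pearson correlation with each, over all cells and with label means removed. These came from 8079 genes at 1 TPM or more in at least 10% of cells. Predicted genes, pseudogene symbols and numbered Rpl and Rps ribosomal protein genes were left out of the 8079 beforehand. For each pathway list up to 3 genes of largest difference per comparison with a mean of at least 5 TPM were also named. Alternatives were other pseudocounts (0.1 and 10 TPM), scaling by median ratios over 547 genes, the ratio of mean TPM with 1 TPM added to each mean, no filter, other detection limits, single title runs, renormalisation after leaving out mitochondrial genes and the 20 most abundant, and leaving out the highest cell of each label or the proneu cell with no gate label. Leaving out GMP cells at 1000 TPM or more of Ngp was chosen after seeing the data. Sequences came from RefSeq tables on GRCm38.p6, positions from GENCODE M21. Python 3.11.15, numpy 2.4.6, pandas 2.3.3 and scipy 1.17.1 were used.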

Additional observations from a re-analysis of the deposited data

How the results depend on the processing

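Of 261 alternative values for 27 differences, 247 kept their side of the limit and none of the called ones changed sign. The values with no filter could not differ from the main ones, nor could those of run C alone in tpMo over preNeu cells. They are counted among the 247. Among the called differences that held throughout were Ifitm6 and Ifitm3 in preNeu over proneu cells (5.84 to 11.2 and 2.61 to 5.80), Ifitm3, Ifitm6 and Ifi27l2a in tpMo over Ly6C+GMP cells (3.36 to 4.88, 2.88 to 6.23 and 2.43 to 6.17) and Ifitm3 in proneu over Ly6C+GMP cells (-3.16 to -1.09). With the log2 ratio of mean TPM, 1 TPM added to each mean, 1 gene was higher in Ly6C-GMP over CMP cells (Ifitm6, 3.01, which rests on 3 cells), where the 1 lower gene was Ifi27l2a (-1.99) and no longer Ifitm1 (-0.89). By this measure 3 were lower in Ly6C+GMP over Ly6C-GMP cells (Ifitm6, -1.99, being added), 4 in proneu over Ly6C+GMP, 0 in preNeu over proneu and 1 in tpMo over Ly6C+GMP cells, and 2 were higher in tpMo over preNeu cells (without Ifitm2, 0.88). With a pseudocount of 0.1 TPM, 2 were lower in proneu over Ly6C+GMP cells and 1 in tpMo over Ly6C+GMP cells, Ifitm1 being the added gene in both. Median-ratio scaling left 0 lower in preNeu over proneu cells, and title run H alone gave 2 lower in Ly6C-GMP over CMP cells. The cause was not tested. Leaving out the highest cell of each label changed no count. Without the GMP cells high in Ngp, an alternative chosen after seeing the data, no count changed either.

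With a pseudocount of 10 TPM the background counts were smaller. They were 535 genes higher and 48 lower against 1964 and 162 in Ly6C-GMP over CMP, 242 and 29 against 1224 and 168 in Ly6C+GMP over Ly6C-GMP, and 66 and 441 against 264 and 1918 in proneu over Ly6C+GMP cells. They were 220 and 2312 against 394 and 4377 in preNeu over proneu, 223 and 1574 against 385 and 3968 in tpMo over Ly6C+GMP, and 1471 and 227 against 2848 and 490 in tpMo over preNeu cells. Median-ratio scaling moved the median of all genes in tpMo over preNeu cells to 0.26.

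No paired analysis was possible because each sample is 1 cell, the labels give no replicate numbers and the results come from no test. TPM keeps no depth, so a gene at 0 in a cell is a gene not detected at an unknown depth. The preNeu cells had the fewest genes detected.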
